A study of Mus musculus with 72 samples.

Results

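Fat of wild-type (WT) mice collected at zeitgeber time 0 (ZT0) was compared with fat collected at ZT12, in 4 libraries for each time, which is 8 of the 72 samples of the series. The members were chosen by label alone: genotype WT, tissue eWAT (a white adipose tissue by the series title), and time ZT0 or ZT12. The series also holds mice labelled full-body Bmal1-KO (KO below) and mice labelled LRE, a name that the labels leave unexpanded, both sampled at the same times, and the ZT0 and ZT12 samples of those genotypes (8 samples each) serve below as comparison. The sources used here give no strain, age, sex, lighting or feeding, and do not say whether the 4 replicates of a group are separate animals. P-values therefore measure the spread between these samples, which may be technical. The series text describes SmartSeq3 libraries of a cultured cell line, while each sample label names eWAT, and the labels were followed.

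Zeitgeber time counts hours from lights on, so ZT0 is the start of the rest phase of a nocturnal mouse and ZT12 the start of its active phase. The mammalian clock is a feedback loop in which BMAL1 and CLOCK drive transcription of their own repressors, the Period and Cryptochrome genes, and of REV-ERB nuclear receptors, which in turn repress Bmal1. Genes driven directly by BMAL1 and CLOCK and genes repressed by REV-ERB therefore peak at opposite ends of the day in many tissues. White fat stores triglyceride and releases fatty acids, and both activities, like the secretion of adipokines, are known to vary over the day with feeding and with the local clock. A pair of times 12 h apart can show a difference between these 2 ends of the day, and cannot show a peak time or a period.

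The deposited table has counts for 32377 rows but pairs no row with a gene. A row is called here by its number, counted from 1 after the header line, for at most 2 rows in each direction, and other rows are described without a number. No clock gene, adipocyte marker or marker of another cell type could be looked up, so neither the tissue label nor the content of the samples was checked against marker genes. In bulk tissue, a lower count can come from fewer cells of a type or from less RNA per cell, and these cannot be told apart here.

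Library depth moved with time. The 4 ZT0 libraries held 131973, 261328, 217388 and 114043 counts, and the 4 ZT12 libraries held 73037, 74032, 73744 and 70689. All ZT0 totals lay above all ZT12 totals (exact two-sided permutation test, p = 0.0286, the smallest that 4 against 4 can give, adjusted p = 0.0857 over 6 library measures). Between 11419 and 12940 rows were detected at ZT0 and between 8505 and 9866 at ZT12 (exact p = 0.0286, adjusted p = 0.0857). With every library thinned to 70689 counts the ranges overlapped, at 9470 to 9946 rows at ZT0 and 8357 to 9866 at ZT12 (exact p = 0.229, adjusted p = 0.457). A single count was worth 3.58 to 8.88 CPM (counts relative to the library size after scaling) at ZT0 and 12.7 to 21.1 CPM at ZT12. The part of depth in the differences below was not tested beyond the thinned counts given with them. ZT12 replicate 2 stood apart: its 10 largest rows held 37.8% of its counts, against 13.2% to 17.6% in the other 7 libraries. Those 10 rows held 5.31% to 10.04% of the counts elsewhere. Only 3 of them were tested and none was called.

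Levels at ZT12 and ZT0 differed at 50 of 1960 rows tested (edgeR quasi-likelihood F-test, Benjamini-Hochberg adjusted p under 0.05), which is 2.55% of them. A row was tested if it had at least 10 counts in at least 4 of the 8 libraries. Some tested rows gave identical results in every value of the fit, so the 1960 rows may not all be distinct features. How many repeat was not counted. There were 29 rows higher at ZT12 (1.48% of rows tested) and 21 rows lower (1.07%). The 29 higher rows rose by a median log2 fold change of 1.45, with a range of 1.02 to 2.75, and the 21 lower rows had a median of -1.65. Over all 1960 rows the median was 0.00, with quartiles at -0.28 and 0.31. At least a 2-fold change was fitted for 29 of 29 higher and 20 of 21 lower rows. In 28 of the 29 higher rows and 19 of the 21 lower rows, every ZT12 library lay on the same side of every ZT0 library. Among all rows tested, 7.96% had ranges that did not overlap, 3.83% with ZT12 higher and 4.13% with ZT12 lower. The 50 rows were called from these same 8 libraries, so their fold changes and separate ranges are a description and no further support.

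**Figure D1:**
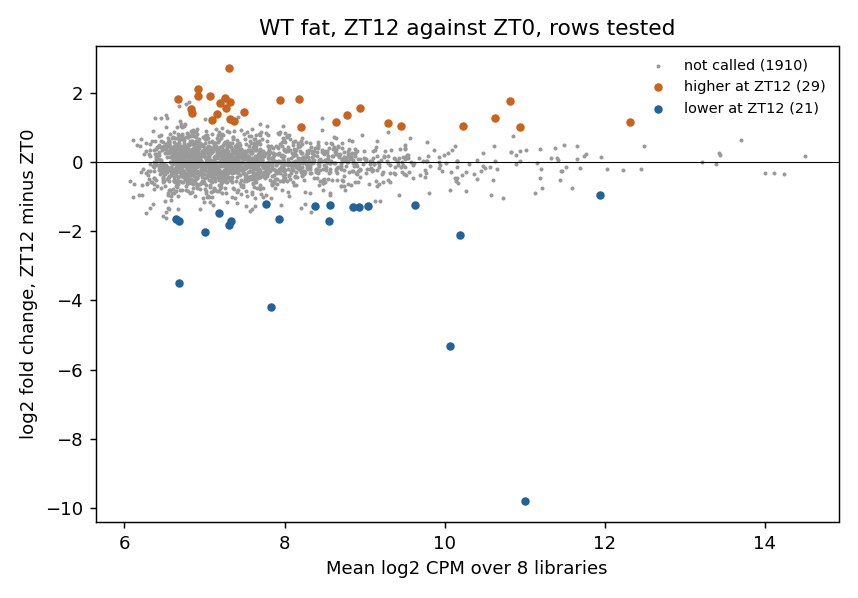
Log2 fold change of ZT12 against ZT0 (vertical axis) against mean log2 CPM over the 8 libraries (horizontal axis) for the 1960 rows tested. Orange points are the 29 rows higher at ZT12, blue points the 21 rows lower, and grey points the rest; the called rows run from near the lowest levels to high levels, and the 4 lowest points reach beyond a log2 fold change of -3.

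Together the 29 higher rows held 0.834% to 1.22% of a ZT0 library's counts and 1.32% to 3.15% of a ZT12 library's counts. The 21 lower rows held 1.62% to 2.56% at ZT0 and 0.411% to 0.594% at ZT12. The called rows ran from low to high levels for this table. Their median over the 8 libraries was 176 CPM for the higher rows and 302 CPM for the lower rows, against 148 CPM for all rows tested. The spread between replicates is given as the median coefficient of variation. In the higher rows it was 30.4% at ZT0 and 28.8% at ZT12, near that of all rows tested. In the lower rows it was 28.9% at ZT0 and wider than in all rows tested at ZT12, at 39.2%. For all rows tested it was 28.0% and 31.0%. At ZT12, 10 of the 21 lower rows had under 10 counts in every library, as had 266 of all 1960. The part of counting error in the 39.2% was not tested.

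Row 8256 was lower at ZT12 and passed the count filter through ZT0 alone, where it is high, so its values are a description. It stood at 4489, 1395, 1659 and 284 CPM in ZT0 replicates 1 to 4 and at 25.4, 169, 26.1 and 12.8 CPM in ZT12 replicates 1 to 4. Even the lowest ZT0 library lay above the highest ZT12 library, although the ZT0 values themselves spread widely. The ZT12 values rest on 2, 8, 2 and 1 counts. The fitted log2 fold change was -5.31 ± 0.74 (SE), and -6.47 ± 0.85 without ZT12 replicate 2.

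Row 20224 was lower at ZT12 with less scatter. It stood at 2283, 1789, 1997 and 1164 CPM in the 4 ZT0 libraries and at 393, 675, 378 and 282 CPM in the 4 ZT12 libraries. The groups did not overlap, and the highest ZT12 library, replicate 2, lay below the lowest ZT0 library, replicate 4. Its mean was 1808 ± 475 CPM at ZT0 (SD, n = 4) and 432 ± 169 CPM at ZT12, and its log2 fold change -2.10 ± 0.30 (SE, adjusted p = 0.000621 by edgeR).

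Row 8699 was higher at ZT12. Its ZT0 values were 55.8, 50.1, 41.8 and 35.5 CPM, from 4 to 14 counts, and its ZT12 values 241, 127, 300 and 128 CPM, from 6 to 23 counts. Replicates 2 and 4 were the lower of the ZT12 libraries and still lay above every ZT0 library. The log2 fold change was 2.11 ± 0.36 (SE, adjusted p = 0.00326 by edgeR).

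Row 623 had the largest fitted rise, and this rested on 1 library. It stood at 48.9, 42.9, 50.1 and 35.5 CPM at ZT0 and at 114, 1076, 130.3 and 77.0 CPM at ZT12, where the value of 1076 is that of replicate 2, the library that stood apart. The fitted log2 value, 2.75 ± 0.64 with all 8 libraries (adjusted p = 0.0213 by edgeR), became 1.23 ± 0.40 without that library (adjusted p = 0.141). The call was also lost without ZT0 replicate 2 (0.0827) or ZT0 replicate 3 (0.0672) and with limma-voom (0.132). Rows 8699 and 20224 were called in all 8 fits that left out 1 library.

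**Figure D2:**
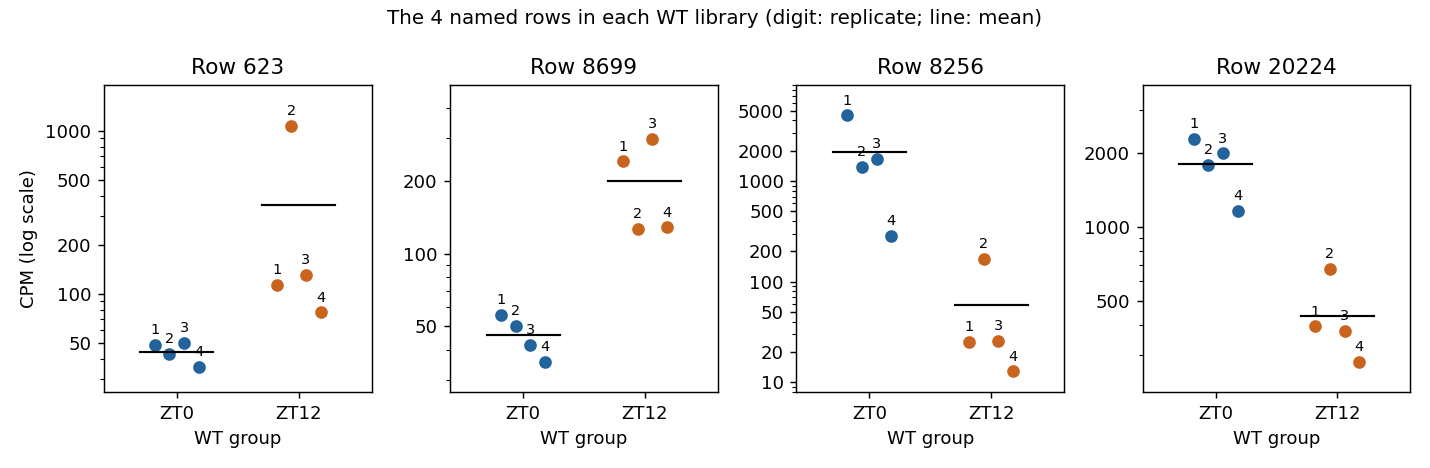
CPM on a log scale for rows 623, 8699, 8256 and 20224 in each of the 8 WT libraries (points, with the replicate number; the line is the group mean). The ZT0 and ZT12 points do not overlap in any panel, which the choice of rows required, and ZT12 replicate 2 stands far above the other ZT12 points for row 623.

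Some rows without a number were singled out after their values were seen. The higher row with the smallest p stood at 719, 948, 773 and 844 CPM at ZT0 and at 3337, 2173, 3674 and 2118 CPM at ZT12. The groups lay far apart, and the fit gave 1.78 ± 0.25 on the log2 scale (adjusted p = 0.000621 by edgeR). The most abundant of the higher rows was already at 3129 ± 291 CPM at ZT0 (SD, n = 4) and reached 7084 ± 2182 CPM at ZT12 (adjusted p = 0.00882 by edgeR). The most abundant of the lower rows went from 5115 ± 1477 to 2685 ± 98 CPM (log2 fold change -0.93 ± 0.24, adjusted p = 0.0387), and this call was lost without ZT12 replicate 2 (adjusted p = 0.0811). A further higher row stood at 195 ± 15 CPM at ZT0 and 399 ± 24 CPM at ZT12 (adjusted p = 0.0203 by edgeR). Of the 8 fits that left out 1 library, 8 called the first of these 4 rows, 7 the second, 1 the third and 3 the fourth.

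There were 2 lower rows with 3 or fewer counts in the 4 ZT12 libraries together, whose fitted fold changes are no measure of size. One of them had 1874 counts at ZT0 and 1 at ZT12. Its ZT0 values were 83.8, 35.8, 376 and 15650 CPM, so that most of those counts came from replicate 4. The other had 102 counts at ZT0 and 3 at ZT12, a ratio of 12.3 (exact 95% interval 4.10 to 60.8, which covers counting error only), with 97.7 to 181 CPM in every ZT0 library and no count in 2 ZT12 libraries.

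The count filter and the depth bear on the lower rows. Of the 1960 rows, 266 passed the filter through ZT0 alone, with 10 counts in all 4 ZT0 libraries and in no ZT12 library, and none passed through ZT12 alone. Of the 21 lower rows, 10 passed in this way, and their count is not read as support. After thinning to equal totals 1148 rows were tested and 30 were called, 14 higher and 16 lower, and 26 of those belong to the 50 rows, each with its direction kept.

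Without ZT12 replicate 2, which stood apart, 45 rows were called (2.3% of 1960), 26 higher and 19 lower. Of these, 38 were among the 50, which is 76% of the one list and 84.4% of the other. The direction was the same without that library for 29 of 29 higher and 21 of 21 lower rows. For 20 of the higher and 16 of the lower rows, the fitted change was larger in size without it. For all rows tested, 1750 of 1960 kept their direction and 1180 were larger in size, and the 2 fits share 7 libraries. In 13 of the 29 higher and 14 of the 21 lower rows, ZT12 replicate 2 was the ZT12 library nearest to the ZT0 levels. On the ZT0 side, replicate 1 was nearest to ZT12 in 15 of the 29 higher rows and replicate 4 in 13 of the 21 lower rows. The share over all rows tested was not computed, so these counts are not read as particular to the called rows.

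The number of calls depended on single libraries. It was 29 without ZT0 replicate 2, 22 without ZT0 replicate 3, 81 without ZT0 replicate 4, 14 without ZT12 replicate 1 and 23 without ZT12 replicate 3. Without ZT12 replicate 4 there were 34 calls, 25 higher and 9 lower. Rows called in all 8 of these fits numbered 6 of the 29 higher and 6 of the 21 lower. At least 4 of the 8 fits called 23 of the higher and 12 of the lower rows. With library totals as the only scaling, 17 rows were higher and 26 lower, a share of 39.5% higher against 58%, and the median of all rows moved from 0.00 to -0.14. By comparison, limma-voom gave 31 and 13 (70.5%). Leaving out ZT0 replicate 4 and ZT12 replicate 2 together gave 89 calls, 41 higher and 48 lower.

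**Figure D3:**
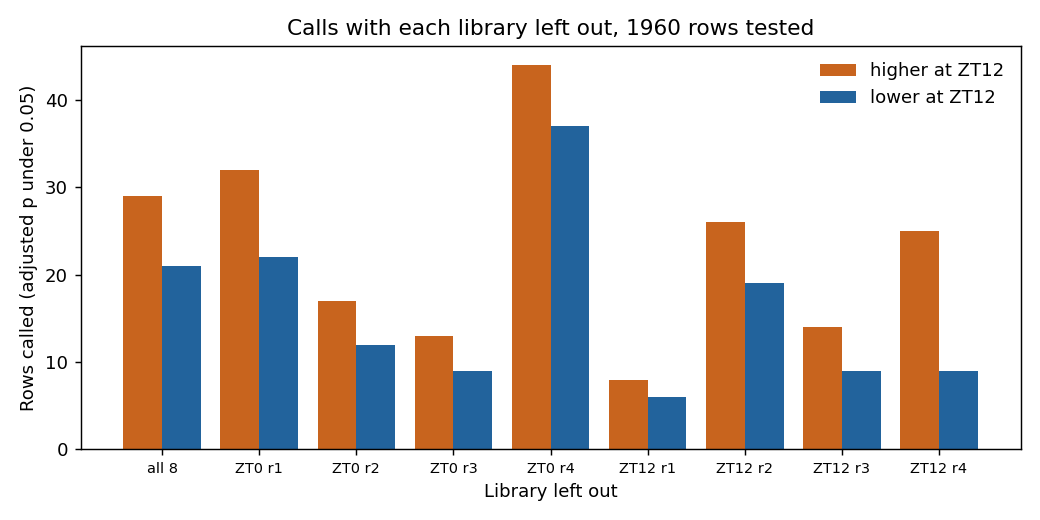
Number of rows called higher (orange) and lower (blue) at ZT12 among the 1960 rows, with all 8 libraries and with each library left out in turn. Bars fall to 8 and 6 without ZT12 replicate 1 and rise to 44 and 37 without ZT0 replicate 4.

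WT fat at ZT4 and ZT8 was sequenced on the same library number as ZT0 and ZT12, and those libraries had no part in choosing the rows. The plate wells of these times ran in time order, with letters A to D at ZT0 and E to H at ZT4. ZT8 took letters I to L and ZT12 took M to P, so time and well letter cannot be told apart. The 29 higher rows had a median log2 level over that at ZT0 of 0.41 at ZT4, 0.79 at ZT8 and 1.28 at ZT12. The 21 lower rows stood at -0.28 at ZT4, -0.61 at ZT8 and -1.37 at ZT12. For all 1960 rows the medians at these times were -0.01, -0.02 and -0.03. Levels at ZT8 were above those at ZT4 in 24 of the 29 higher rows (82.8%) and in 3 of the 21 lower rows (14.3%), against 49.7% of all rows tested. Both ends of the 12 h were fixed by the choice of rows, so the order of all 4 means is not read further. The shares are given as a description, since rows in the same libraries are not independent.

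Levels of the named rows at these times are given on CPM scaled over all 72 libraries, and no step between times was tested. Row 20224 stood at 1742 ± 488 CPM at ZT0 (SD, n = 4), 1795 ± 718 at ZT4, 1653 ± 1041 at ZT8 and 407 ± 158 at ZT12. Its ZT8 libraries split into 683 and 831 against 2419 and 2678 CPM. Row 8256 stood at 1901 ± 1756 CPM at ZT0, 267 ± 261 at ZT4, 125 ± 126 at ZT8 and 54.7 ± 69.3 at ZT12. Its ZT4 libraries, at up to 511 CPM, overlapped the lowest ZT0 library, at 262 CPM. Row 8699 had 44.1 ± 9.6 CPM at ZT0, 124 ± 20 at ZT4, 177 ± 85 at ZT8 and 187 ± 81 at ZT12. Its lowest ZT4 library, at 109.5 CPM, lay above its highest ZT0 library, at 54.6 CPM. Row 623 had 85.2 ± 23.4 CPM at ZT4 and 80.9 ± 37.7 at ZT8, and at ZT20 it reached 5447 CPM in replicate 4 beside 70.7 to 113 CPM in the other 3 libraries.

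Over all 6 times in WT, the group mean was highest at ZT12 in 24 of the 29 higher rows and lowest at ZT12 in 12 of the 21 lower rows. Of all 1960 rows, 281 were highest and 296 lowest at ZT12, and the rows were chosen for their ZT12 level. The mean was highest at ZT0 in 8 of the 21 lower rows, at ZT20 in 6 and at ZT4 in 5. For all 1960 rows these numbers were 215, 228 and 244, and the rows were chosen for their ZT0 level as well. The lowest mean of 17 of the 29 higher rows was at ZT16, as it was for 739 of all 1960 rows. The 4 WT libraries of ZT16 are unlike the other libraries across all rows: the quartiles of the difference from ZT0 over the 1960 rows were -0.90 and 0.69 there, against -0.30 and 0.24 at ZT12. ZT16 and ZT20 also carry another library number than the earlier times.

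**Figure D4:**
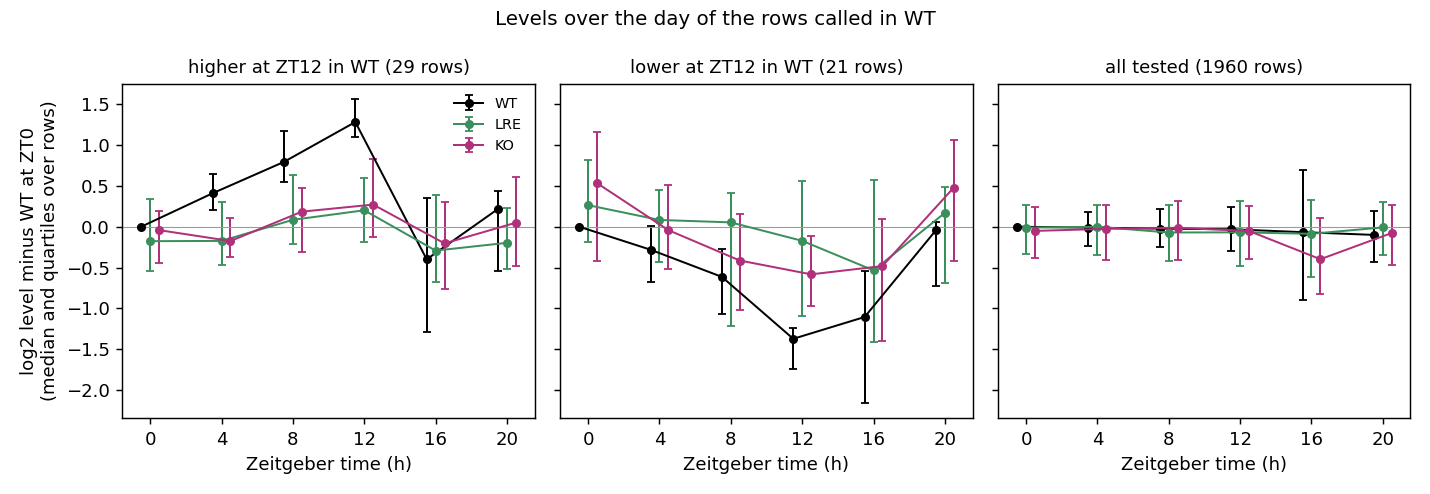
Median (points) and quartiles (bars) over rows of the log2 level minus that of WT at ZT0, by zeitgeber time in hours, for the 29 rows higher at ZT12 in WT, the 21 rows lower, and all 1960 rows tested; WT is black, LRE green and KO magenta. In WT the 29 rows climb to 1.28 at ZT12 and the 21 rows go down to -1.37, while the medians of all rows stay near 0 at these times.

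The same 12 h comparison was made in KO and LRE, whose fold changes come from other libraries than those that chose the rows, with the spread estimated over all 24 libraries. By this fit, 12 of the 1960 rows differed between ZT12 and ZT0 in KO (0.612%; 0.153% higher and 0.459% lower), and 174 in LRE (8.88%; 4.29% higher and 4.59% lower; edgeR, adjusted p under 0.05). In WT the same fit called 24 rows (15 higher, 9 lower), all among the 50 that the fit of 8 libraries called. The 50 and the counts for KO and LRE thus come from different fits. Of the 50 rows called in WT, 5 were called in KO (10%), all 5 in the WT direction, and 13 in LRE (26%), 10 in the WT direction and 3 against it. The sign was that of WT for 37 of the 50 rows in KO (74%) and for 35 in LRE (70%), where all rows tested gave 55.97% and 53.7%. These counts and shares hold the 10 lower rows that passed the filter through WT ZT0 alone, so they are a description. Among the LRE calls were 2 such rows with 3 or fewer counts at ZT12 in WT and another with 16. KO libraries of the 2 times did not overlap, with ZT12 lower, in 8 of the 21 lower rows (3.62% of all rows tested), and with ZT12 higher in 2 of the 29 higher rows (1.73%). In LRE these counts were 3 of 21 (5.61%) and 3 of 29 (6.28%). In KO both times carry library number 4. In LRE, ZT0 carries number 2 and ZT12 number 3, so time and library number cannot be told apart there. The letters of the plate wells moved with time as well. In WT and in KO, ZT0 took letters A to D and ZT12 letters M to P. In LRE, ZT0 took I to L and ZT12 took A to D. Time and well letter therefore cannot be told apart in any of these genotypes.

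The higher rows of WT had a median log2 difference of 0.34 in KO (0.01 for all rows) and 0.46 in LRE (0.03 for all rows). The lower rows had -1.16 in KO and -0.21 in LRE, with the 10 rows that passed the filter through WT ZT0 alone among them. The LRE value turned to 0.12 without LRE ZT12 replicate 1. In KO, 4 of the 5 rows called were among the lower rows of WT, and row 20224 was one of them. On the scale of 72 libraries, used for all KO and LRE levels, it stood at 5562 ± 1777 CPM at ZT0 in KO (SD, n = 4, lowest library 3273) and 914 ± 386 at ZT12 (highest library 1307). The groups did not overlap, and the fit gave -2.66 ± 0.49 on the log2 scale (adjusted p = 0.00468 by edgeR). The LRE libraries had means of 4722 ± 3921 CPM at ZT0 and 5350 ± 3359 at ZT12 and overlapped (log2 fold change 0.25 ± 0.46, adjusted p = 0.786). The other 3 lower rows called in KO had log2 fold changes of -2.15, -1.50 and -2.59 there (adjusted p = 0.0171, 0.0244 and 0.0119 by edgeR), beside -1.70, -1.28 and -1.19 in WT, and none of them was called in LRE (adjusted p = 0.792, 0.636 and 0.336). Without KO ZT12 replicate 2 all 4 of these KO calls were lost (adjusted p = 0.0554 for row 20224), and without KO ZT0 replicate 3 only row 20224 kept its call. Without KO ZT12 replicate 3 there were 2 of the 4 calls left, and without KO ZT12 replicate 4 there were 3. All 4 kept their sign in each of 29 alternatives.

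Row 8699 was called in LRE and not in KO. Its LRE values were 11.97, 13.9, 44.2 and 33.5 CPM at ZT0 and 242, 34.7, 34.4 and 205 CPM at ZT12, so the groups overlapped and 2 libraries stood high (log2 fold change 2.30 ± 0.59, SE, adjusted p = 0.0178 by edgeR). Without LRE ZT12 replicate 1 the adjusted p was 0.195, and the call was lost in 5 of 29 alternatives. In KO the values were 30.2, 13.4, 0 and 73.6 CPM at ZT0 and 29.1, 103, 93.1 and 30.4 CPM at ZT12 (1.15 ± 0.74, adjusted p = 0.671). Row 8256 was at 14.7 to 67.0 CPM at ZT0 and 0 to 25.7 CPM at ZT12 in KO, and at 83.8 to 416 CPM and 20.5 to 104 CPM in LRE. Every KO library of either time lay below the lowest WT library of ZT0 (262 CPM), as did every WT library of ZT12 (at most 158 CPM). Row 8256 passed the filter through WT ZT0 alone, where it is high, so these levels are a description. Its difference between times passed the threshold in neither KO (adjusted p = 0.817) nor LRE (0.0687). Row 623 passed it in neither as well (0.962 and 0.796), with 30.4 to 90.1 CPM in the 3 KO libraries of ZT12 that had a count and 41.0 to 104 CPM in the 4 LRE libraries. Exactly 1 of the rows called in WT from 8 libraries was called in both KO and LRE. It was the higher row with the smallest p described above. Its mean rose from 355 to 1965 CPM in KO (log2 fold change 2.45, adjusted p = 0.0402 by edgeR) and from 222 to 1151 CPM in LRE (2.44, adjusted p = 0.0141). The KO call was lost in 13 of 29 alternatives, among them limma-voom (adjusted p = 0.157) and leaving out any one of 7 KO libraries, and the LRE call without LRE ZT12 replicate 1 or 4, with the sign kept in all 29.

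**Figure D5:**
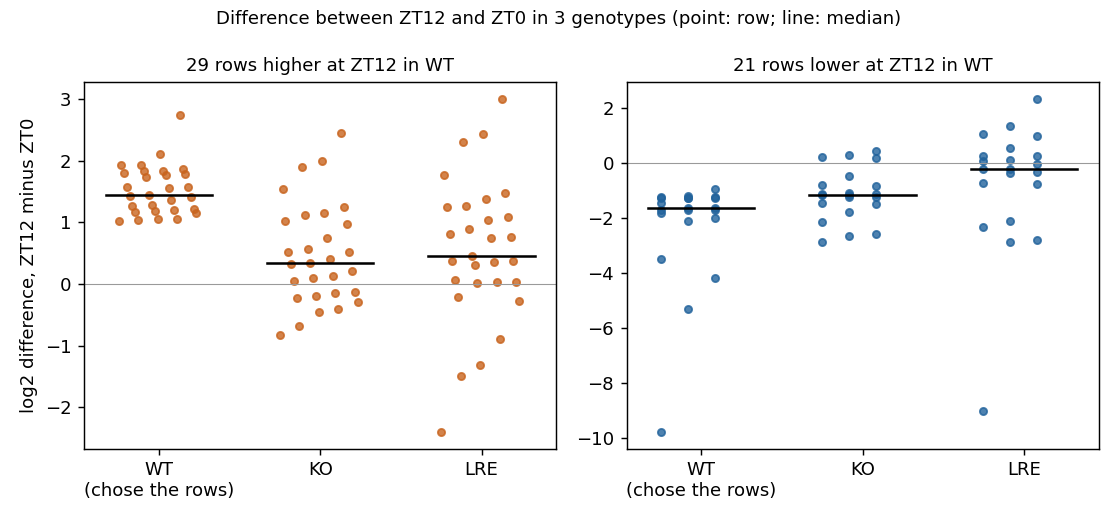
Log2 difference between ZT12 and ZT0 in WT, KO and LRE for the 29 rows higher (left) and the 21 rows lower (right) at ZT12 in WT; each point is a row and the line is the median. The WT points lie on one side of 0 because they chose the rows, while the KO and LRE points fall on both sides, with medians of 0.34 and 0.46 on the left and -1.16 and -0.21 on the right.

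The difference between genotypes was tested as an interaction of time and genotype. Between KO and WT, 0 of 1960 rows were called by edgeR (0% of rows tested); 120 rows had an unadjusted p under 0.05, DESeq2 called 1 row and limma-voom 0. This does not show that the 2 genotypes changed alike. Between LRE and WT, 20 rows were called (1.02%; 0.306% more positive in LRE and 0.714% more negative), and 6 of them belong to the 50 rows of WT, 3 higher and 3 lower. In each of those 6 the LRE difference had the opposite sign to that of WT. The WT values chose these rows, so this direction is a description. Time in LRE cannot be told apart from library number, which bears on all 20 rows. One of the higher rows stood at 110 CPM at ZT0 and 374 at ZT12 in WT and at 289.5 and 148 CPM in LRE (interaction -2.65 ± 0.46 on the log2 scale, SE, adjusted p = 0.00251 by edgeR). One of the lower rows, that with 3 counts at ZT12 in WT, stood at 11.6 CPM at ZT0 and 65.03 at ZT12 in LRE. It had passed the filter through WT ZT0 alone. So had another of the 3 lower rows, with 10 counts in all at ZT12 in WT. The calls of both are not read as support. For rows 8699, 8256, 20224 and 623 the interaction of LRE with WT had adjusted p values of 0.899, 0.136, 0.0645 and 0.186.

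These counts moved with single libraries. The interaction of LRE and WT gave 113 rows without LRE ZT0 replicate 3, 49 without WT ZT0 replicate 4, 31 without LRE ZT0 replicate 2, 13 without WT ZT0 replicate 2, 12 without LRE ZT0 replicate 4, 11 without LRE ZT12 replicate 3, 9 without WT ZT12 replicate 4 and 7 without LRE ZT12 replicate 1. It gave 17 without WT ZT12 replicate 2. The difference within LRE gave 400 rows without LRE ZT0 replicate 3, 77 without ZT0 replicate 1, 33 without ZT0 replicate 4, and 49, 104 and 92 without ZT12 replicates 1, 3 and 4. The difference within KO gave 26 and 23 rows without LRE ZT0 replicates 3 and 4, and 3, 6, 1 and 4 rows without KO ZT0 replicates 3 and 4 and KO ZT12 replicates 2 and 3.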

How the data were processed

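RNA was sequenced from 72 samples, 8 of them used for the main comparison. The deposited values are whole-number counts in 1 table without row identifiers; per the file headers, they come from sorted and deduplicated alignments. Per the submitters' processing notes, STAR 2.5.4b and the builds mm10 and GRCm38 were used; the counter, annotation, strand and use of molecular identifiers are not given in the sources used. Columns were tied to samples by plate well; 108 other columns were not used. Rows without a gene could not be told apart and stayed in the totals.

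Rows with at least 10 counts in at least 4 of the 8 libraries were tested with edgeR 4.0.16 in R 4.3.3 (TMM scaling on full library totals, quasi-likelihood F-test, 6 residual degrees of freedom, Benjamini-Hochberg over 1960 rows). KO and LRE entered a fit of 6 group means in 24 libraries (18 degrees of freedom) on the same rows. The SE is the fold change over the square root of F. Levels at other times are CPM scaled over 72 libraries, and log2 levels add a prior count of 2. Named rows are the 2 called rows of largest fold in each direction with a count in all 8 libraries and ranges that do not overlap. Library measures were compared by exact permutation. Pairs of libraries of a group differed by 1.48 to 16.9 chi-square per degree of freedom, so each was kept as its own sample. Alternatives were other scalings, filters, DESeq2 1.42.0, limma-voom 3.58.1, thinning, other sets of libraries and a replicate block. Fits were checked on simulated data. The comparison and rules were chosen with earlier results of these data known; gene lists drawn up for it need identifiers and were not used.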

Additional observations from a re-analysis of the deposited data

Results flagged for a closer look

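Of 38 groups of 4 libraries checked, 4 had a library with a wide gap to the rest of the group; chance gives about 1 in 20, or 1.9. In ZT12 replicate 2 of WT the 10 largest rows held 37.8% of the counts. The same library stood out for row 623, at 1076 CPM, and for row 8256, at 169 CPM. LRE ZT0 replicate 1 stood out for row 623 at 132 CPM, beside 41.6 to 44.7 CPM in the other 3 libraries. Rows that rest on a few counts can be singled out by 1 or 2 counts. The difference between ZT12 and ZT0 differed between LRE and WT at 20 rows by a test of the difference itself (edgeR interaction, adjusted p under 0.05). That number lay between 7 and 113 when 1 of the 24 libraries was left out. The LRE libraries of ZT0 and ZT12 carry different library numbers, which cannot be told apart from time.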

How the results depend on the processing

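The 50 rows called in WT (29 higher, 21 lower) became 251 (64 and 187) with no count filter, over 16467 rows, 28 (18 and 10) with at least 10 counts in all 8 libraries, over 566 rows, 24 (13 and 11) in a fit of all 72 libraries, and 30 (14 and 16) on thinned counts. Without the filter 25.5% were higher. Library totals gave 17 higher, limma-voom 13 lower. Leaving out 1 library gave 14 to 81 calls, 8 to 44 higher and 6 to 37 lower; leaving out ZT0 replicate 4 and ZT12 replicate 2 together gave 89, 48 of them lower. RLE scaling, upper-quartile scaling and DESeq2 gave 49, 52 and 53. Calls shared with the 50 kept their direction in each of these fits. Of the rows named, 623 lost its call in 5 of the 20 alternatives that tested it. Row 8699 kept its call in all 21 that tested it, and row 20224 in all 24. Rows 623 and 8699 did not pass the filter on thinned counts, that of 10 counts in all 8 libraries, or the default filter of edgeR. Row 623 also failed the filter recomputed without ZT12 replicate 2. Those fits therefore did not test the rows that failed their filter.

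The labels state no pairing by replicate number. Deviations of same-numbered libraries correlated at -0.06 to 0.11, and others at -0.14 to 0.15. With so few same-numbered libraries, these values cannot exclude a pairing. With a replicate block, 68 rows were called in WT, among them all 50, and counts were 31 for KO, 61 for LRE against WT and 1 for KO against WT. DESeq2 gave 25 for KO and 1 for KO against WT. Leaving out 1 of 24 libraries gave 1 to 26 rows for KO, 33 to 400 for LRE, 0 to 1 for KO against WT and 7 to 113 for LRE against WT. The median in LRE of the lower rows, -0.21, lay between -0.42 and 0.12, with the reversed sign without LRE ZT12 replicate 1. The difference in library totals lay between -130688 and -81593 counts when 1 library was left out, with an exact p of 0.0286 to 0.0857. The cause of these shifts was not tested. At ZT12, 1 count was worth 12.7 CPM or more, which limits what can be seen in low rows.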
